A study of Mus musculus with 9 samples.

Results

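The ADAM and ADAMTS metalloproteinase genes were described in a mouse pancreatic cancer cell line, 170#3, from mice of mixed C57BL6, FVB and 129Sv background. Members were taken by gene symbol, as the ADAM, ADAMTS and ADAMTS-like genes that carry a family number. A gene was read by the brightest of the probe sets that the platform annotation ties to it alone. In this way 48 of the 18193 genes on the array were members (28 ADAM, 15 ADAMTS and 5 ADAMTS-like genes), measured by 82 probe sets. Another 5 probe sets were annotated to several genes (Adam1a with Mapkapk5, or Adam6a with Adam6b) and were not used.

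The 3 groups were this line stably transfected with a control, with beta-catenin (Ctnnb1, the co-activator through which Wnt signals reach TCF/LEF factors) or with ICAT (Ctnnbip1, a small protein that keeps beta-catenin from TCF/LEF factors). All were grown as monolayers in DMEM medium with 10% FBS, and total RNA of 3 samples per group was hybridised to Affymetrix expression arrays, 9 in all. The samples are described as independent biological replicates. The labels do not say whether a transfected line was 1 clone or a pool, or whether its samples came from separate transfections, so the p-values reflect only how these samples varied, which may be technical. The comparisons ask how the line with beta-catenin and the line with ICAT each differed from the control line, and from each other.

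ADAM proteins are membrane-anchored metalloproteinases that release the outer part of growth factor precursors, cytokines, adhesion molecules and Notch receptors from the cell surface, a step called shedding. ADAMTS proteins are secreted relatives with thrombospondin repeats that act on the extracellular matrix, where several of them cut the large proteoglycans aggrecan and versican. ADAMTS-like proteins share the repeats but lack the protease domain, and tissue inhibitors of metalloproteinases (TIMPs) restrain many of the active enzymes.

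Values are log2 expression, and a difference of log2 means is given with its fold. A gene was tested where it reached log2 5 on at least 3 arrays, which left 15235 genes, and it was called at a limma adjusted p under 0.05 over all of them. Array medians lay between 6.21 and 6.29. Arrays of a group correlated at 0.998 or above for control, 0.997 for beta-catenin and 0.991 for ICAT, and the median SD per gene was 0.0567, 0.0746 and 0.121. Ctnnb1 itself was called 1.15-fold higher in the beta-catenin line (adjusted p = 0.0353) and 1.14-fold higher in the ICAT line (adjusted p = 0.0364), while Ctnnbip1 differed from control by 0.14 in both without passing (adjusted p = 0.208 and 0.189). These probe sets read the 3′ part of a transcript and need not see a transfected coding sequence, so these values check neither transgene. Of 10 epithelial markers, 7 were tested, and Cdh1, Krt7 and Esrp1 lay under the limit, while 8 of 10 fibroblast markers were tested (Lum and Fap lay under it). Of 7 immune markers 5 were tested (Ptprc and Itgam lay under the limit), and of 5 endothelial markers 2 were tested (Cdh5, Tek and Vwf lay under it).

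Of the 48 members, 33 were tested (17 ADAM, 11 ADAMTS and 5 ADAMTS-like genes). All 33 reached log2 5 on all 9 arrays, and the other 15 reached it on none. The member nearest the limit from above was Adam28, with 3 arrays at 5.58 or above, and the nearest from below was Adam6a, with 3 arrays at 4.88 or above. The 15 members under the limit were Adam2, Adam3, Adam5, Adam6a, Adam6b, Adam18, Adam24, Adam25, Adam26a, Adam32, Adam34, Adamts3, Adamts18, Adamts19 and Adamts20. Most of these are genes of testis or epididymis, where their products serve sperm maturation and fertilisation. Their values lay between 3.07 and 4.96, and the largest difference between group means among them was 0.50 (Adamts3, a procollagen-processing enzyme).

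In the beta-catenin line 12 of the 33 tested members were called against control, 36.4% of them, beside 34.9% of all tested genes. The 7 that rose were Adamts1, Adamts4, Adamts5, Adamts6, Adamts12, Adam10 and Adam12 (21.2%, beside 19.6% of all genes). The 5 that fell were Adamts9, Adamts16, Adamtsl3, Adam8 and Adam17 (15.2%, beside 15.4%). The number that fell was 3 when control replicate 1 or 2 or beta-catenin replicate 2 or 3 was left out. By family, 5 ADAMTS genes rose and 2 fell of 11, 2 ADAM genes rose and 2 fell of 17, and 1 ADAMTS-like gene fell of 5. Differences of at least 1.5-fold were called for 4 members (12.1%, beside 11.2% of all genes): Adamts1, Adamts5, Adamts6 and Adamts12. The arrays of both groups did not overlap for 17 members (51.5%, beside 54.1%). As a set, the members thus differed from control about as often as other genes did.

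In the ICAT line 9 of the 33 were called against control, 27.3% beside 37.2% of all tested genes. The 8 that rose were Adamts4, Adamts5, Adamts9, Adamts12, Adamtsl3, Adamtsl4, Adam8 and Adam9 (24.2%, beside 18.7%), and Adam28 alone fell (3.03%, beside 18.5%). No member was called lower when ICAT replicate 1 or 2, control replicate 2, or beta-catenin replicate 2 or 3 was left out. By family, 4 of 11 ADAMTS genes, 2 of 5 ADAMTS-like genes and 2 of 17 ADAM genes rose. Differences of at least 1.5-fold were called for Adamts5, Adamts9 and Adamts12 (9.09%, beside 9.89%), and arrays did not overlap for 14 members (42.4%, beside 46.2%). When each array was centred on its median, the higher and lower counts were 6 and 6 in the beta-catenin line and 8 and 3 in the ICAT line. That centring moved the share of higher calls over all genes from 56.0% to 44.5% and from 50.3% to 38.3%. It also moved the median difference over all genes downward, from -0.026 to -0.085 and from -0.011 to -0.078. Counts with centred arrays carry that shift.

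Set directly against the ICAT line, the beta-catenin line had 6 members higher (Adamts1, Adamts5, Adamts6, Adamtsl5, Adam10 and Adam12) and 6 lower (Adamts7, Adamts9, Adamtsl3, Adam8, Adam9 and Adam17). This was 18.2% each way, beside 22.5% higher and 17.9% lower of all genes, and 36.4% together beside 40.4%. The higher count was 3 without beta-catenin replicate 2 or 3. Of the 12, 5 differed at least 1.5-fold (15.2%, beside 12.1%), and arrays did not overlap for 16 members (48.5%, beside 47.6%). The median size of the difference was 0.173 among members and 0.166 among all genes. Against control it was 0.136 beside 0.149 in the beta-catenin line and 0.129 beside 0.149 in the ICAT line. The direct comparison and the comparisons with control use the same arrays, and their calls are not independent.

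**Figure D1:**
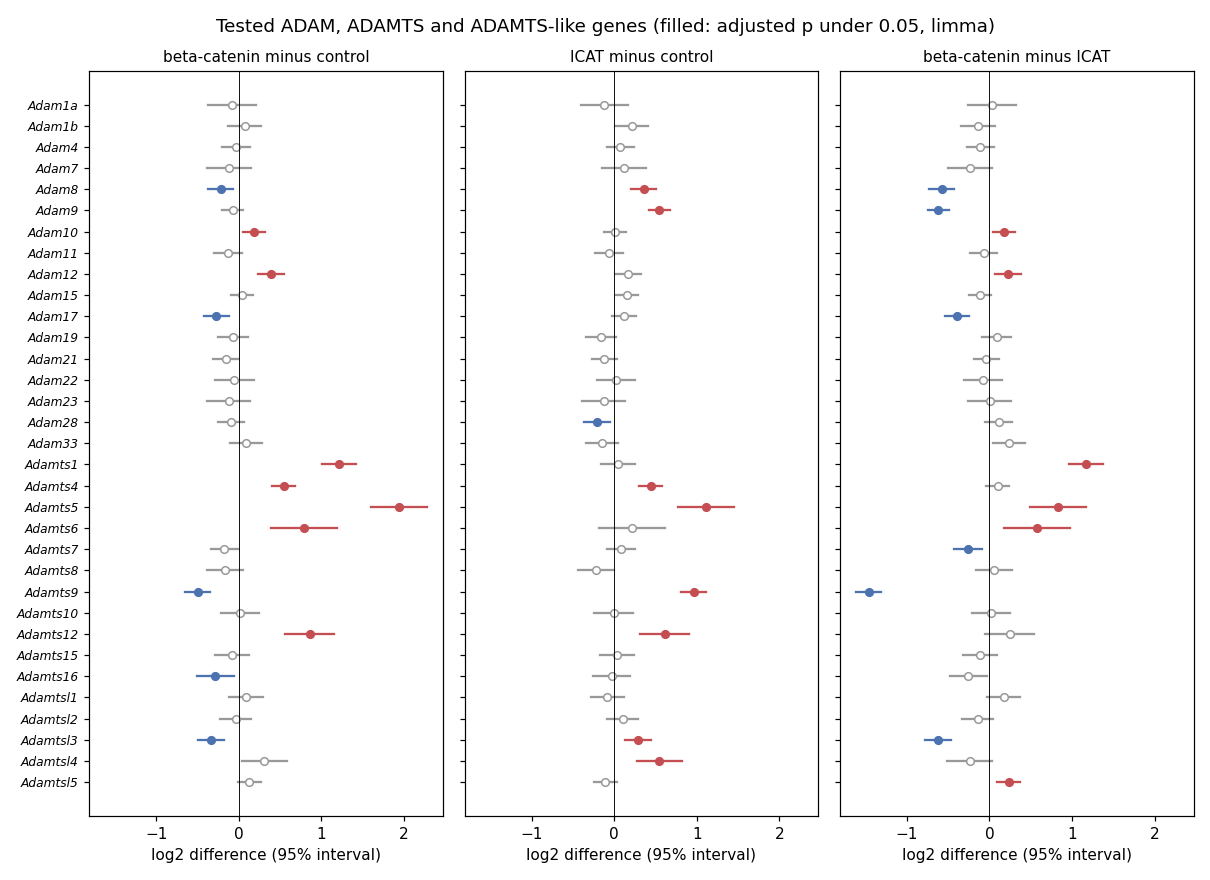
Log2 differences of the 33 tested ADAM, ADAMTS and ADAMTS-like genes in the 3 comparisons, with bars for 95% intervals from limma (n = 3 arrays per group) and filled points for adjusted p under 0.05 (red higher, blue lower). Adamts5 and Adamts1 lie farthest to the right for beta-catenin against control (1.94 and 1.21), and Adamts9 lies farthest from 0 for beta-catenin against ICAT (-1.47).

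The enzymes that cut aggrecan and versican held the largest differences of the family. Of the 7 such genes 6 were tested: 3 rose and 1 fell in the beta-catenin line (19.6% and 15.4% of all genes), and 3 rose and none fell in the ICAT line (18.7% and 18.5%). Adamts5, a main aggrecanase of cartilage, stood at 5.11, 5.31 and 5.61 on the control arrays. It stood at 7.36, 7.23 and 7.24 in the beta-catenin line and at 6.69, 6.08 and 6.58 in the ICAT line. Every beta-catenin array lay above every ICAT array, and every ICAT array above every control array. Adamts5 was 3.83-fold higher in the beta-catenin line (log2 difference 1.94, SE 0.155, 95% interval 1.60 to 2.28, limma adjusted p = 2.08e-06). It was 2.16-fold higher in the ICAT line (1.11, interval 0.77 to 1.45, adjusted p = 0.000199), and 1.77-fold higher in the beta-catenin than in the ICAT line (interval 0.49 to 1.17, adjusted p = 0.00124).

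Adamts5 has 4 probe sets, and their differences were unequal. In a fit over all probe sets the next brightest stood above control by 1.47 in the beta-catenin line (adjusted p = 0.000222) and by 1.06 in the ICAT line (adjusted p = 0.00266). Another stood above control by 0.57 and 0.34 (adjusted p = 0.00212 and 0.0435). The dimmest, under log2 5 on every array, differed by 0.02 and 0.03 (adjusted p = 0.886 and 0.821). The direct difference between both lines was called with the brightest probe set alone, and the next 2 gave 0.41 and 0.23 (adjusted p = 0.192 and 0.156). With the mean of all 4 the differences from control were 0.999 and 0.63, and that between the lines 0.36 (adjusted p = 0.028).

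Adamts1, which cuts versican and aggrecan, rose in the beta-catenin line and was not called in the ICAT line. Its promoter window is shown here because Adamts1 changed in a single line, with the letters TATAAA in capitals. The window runs from 250 bases before to 50 after the gene's start, at chr16:85803064-85803363 on the minus strand of GRCm38.p6 (RefSeq).
Adamts1: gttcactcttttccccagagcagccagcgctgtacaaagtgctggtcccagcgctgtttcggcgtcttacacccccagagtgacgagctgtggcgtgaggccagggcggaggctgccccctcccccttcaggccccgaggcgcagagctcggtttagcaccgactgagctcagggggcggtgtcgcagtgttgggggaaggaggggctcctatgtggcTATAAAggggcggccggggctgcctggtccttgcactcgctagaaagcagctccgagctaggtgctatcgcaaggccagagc
The TATAAA of Adamts1 begins at position -32. A search for TATAAA on both strands, added after the sequences were seen, found it in 13.6% of all 32851 windows of that length. GC content of the window was 64.7%, beside a median of 52.7% over all windows.

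On the control arrays Adamts1 stood at 9.51, 9.44 and 9.51. On the beta-catenin arrays it stood at 10.78, 10.74 and 10.57, all above control, and on the ICAT arrays at 9.35, 9.51 and 9.73, which overlapped control. Adamts1 was 2.31-fold higher in the beta-catenin line than in control (log2 difference 1.21, SE 0.0942, interval 1.001 to 1.416, limma adjusted p = 1.71e-06). The difference in the ICAT line was 0.04, with an interval of -0.17 to 0.25 (adjusted p = 0.783). The beta-catenin line stood 2.25-fold above the ICAT line (interval 0.96 to 1.37, adjusted p = 2.95e-06). Adamts1 and Adamts5 are neighbours on chromosome 16 in the RefSeq gene order.

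Adamts4, the other classical aggrecanase, was 1 of the members outside the rule for full values and is given because it was called in both lines, a choice made after its values were seen. Its control arrays stood at 5.97, 5.79 and 5.88, below all beta-catenin arrays (6.43, 6.44 and 6.40) and all ICAT arrays (6.34, 6.36 and 6.27). It was 1.46-fold higher in the beta-catenin line (adjusted p = 4.43e-05) and 1.36-fold higher in the ICAT line (adjusted p = 0.000244). Its dimmer probe set stood above control by 0.26 and 0.18 without passing (adjusted p = 0.123 and 0.284). The difference between the lines was 0.10, with an interval of -0.04 to 0.24 (adjusted p = 0.248).

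Adamts9, a versican-cutting enzyme, moved in opposite directions in the transfected lines. Its promoter window is shown as that of the member with the largest difference between the lines, at chr6:92943485-92943784 on the minus strand of GRCm38.p6 (RefSeq).
Adamts9: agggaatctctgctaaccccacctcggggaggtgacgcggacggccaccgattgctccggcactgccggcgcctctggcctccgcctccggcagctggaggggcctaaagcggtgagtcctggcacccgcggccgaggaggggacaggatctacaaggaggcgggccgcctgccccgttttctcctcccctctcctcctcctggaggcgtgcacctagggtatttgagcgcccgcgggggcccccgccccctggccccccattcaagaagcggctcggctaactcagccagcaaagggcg
This window, with a GC content of 70.0%, held none of the 4 motifs searched on both strands: CTTTGAT (TCF/LEF, in 3.73% of all windows), TGANTCA (AP-1, 7.81%), GGAATG (TEAD, 14.7%) and TATAAA. RefSeq windows were found for 17 of the 33 tested members, 19 windows in all. CTTTGAT was in none of the 19. TGANTCA was in 2, those of Adam19 and Adam1b, and GGAATG was in 2, those of Adam19 and Adam1a. TATAAA was in 2, those of Adamts1 and Adamtsl2. A match or its absence describes these letters in these windows only.

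The control arrays of Adamts9 stood at 6.83, 6.95 and 6.86. Its beta-catenin arrays stood at 6.30, 6.40 and 6.45, all below control, and its ICAT arrays at 7.77, 7.90 and 7.87, all above control. Adamts9 was 1.41-fold lower in the beta-catenin line (log2 difference -0.50, interval -0.65 to -0.35, limma adjusted p = 0.000143) and 1.95-fold higher in the ICAT line (0.97, interval 0.82 to 1.12, adjusted p = 1.95e-06). The beta-catenin line stood 2.76-fold below the ICAT line (-1.47, SE 0.0682, adjusted p = 5.18e-08). Of its other probe sets, 1 gave -0.30 and 0.57 against control (adjusted p = 0.0237 and 0.000363). The other gave -0.22 and 0.07, neither called (adjusted p = 0.0798 and 0.636). With the mean of its probe sets the ICAT difference was 0.54 and that between the lines -0.88, both still called. Adamts8 and Adamts15, the remaining tested proteoglycan-cutting genes, were called in no comparison.

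**Figure D2:**
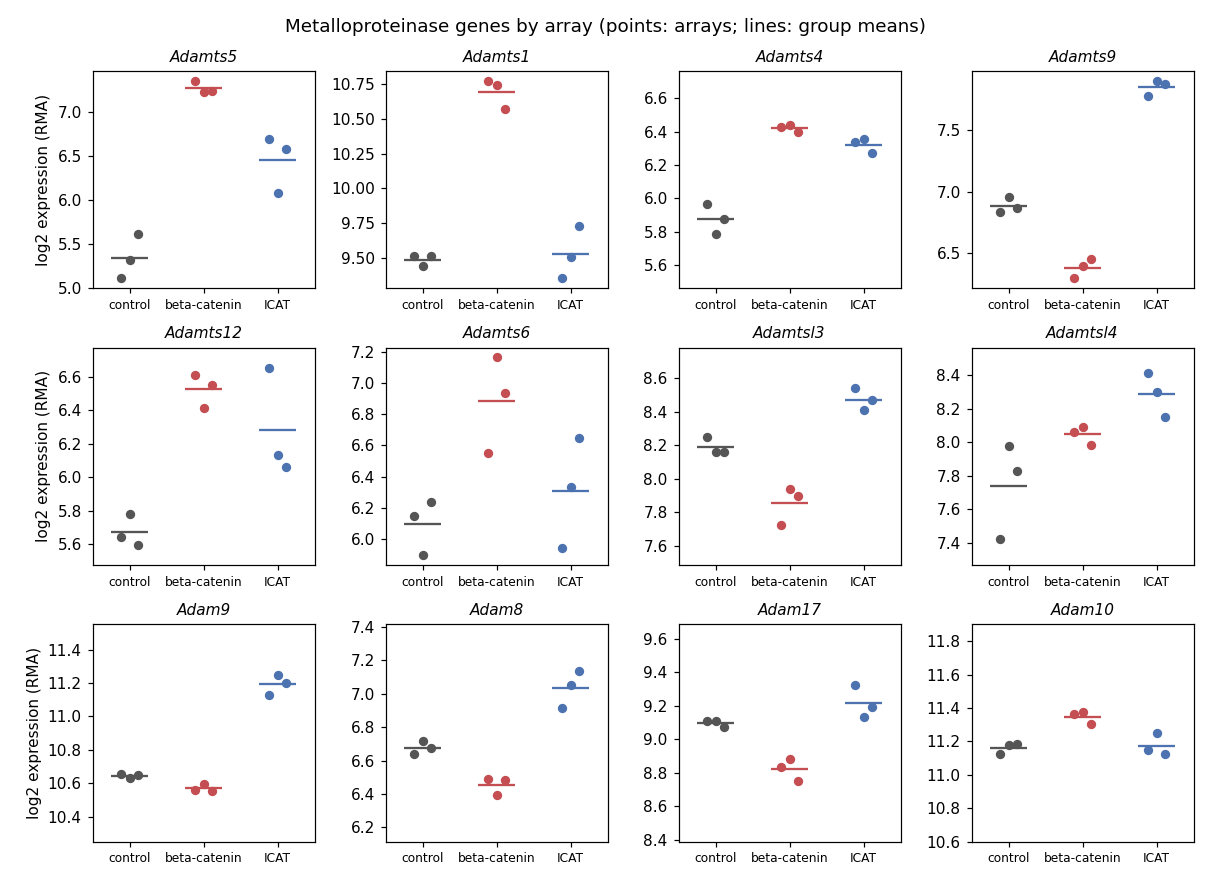
Log2 expression of 12 member genes on each of the 9 arrays by group (points are arrays, lines are means of 3), with a separate vertical scale for each gene. Adamts1 lies above control in the beta-catenin line (10.57 to 10.78), Adam9 lies above control in the ICAT line (11.13 to 11.25), and Adamts9 lies below control in the beta-catenin line (6.30 to 6.45) and above it in the ICAT line (7.77 to 7.90).

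Adamts12, an enzyme reported to cut cartilage oligomeric matrix protein (COMP), rose in both lines. Its control arrays stood at 5.64, 5.78 and 5.60, its beta-catenin arrays at 6.61, 6.41 and 6.55, and its ICAT arrays at 6.65, 6.13 and 6.06. All arrays of the transfected lines lay above control, and those of the lines overlapped each other. Adamts12 was 1.81-fold higher in the beta-catenin line (log2 difference 0.86, SE 0.133, limma adjusted p = 0.000388) and 1.53-fold higher in the ICAT line (0.61, adjusted p = 0.00365). The difference between the lines was 0.24 (interval -0.05 to 0.54, adjusted p = 0.178). Without ICAT replicate 1 that difference was 0.43 and was called (adjusted p = 0.00181). Its other probe set lay under log2 5 on every array and gave 0.00 and -0.05 against control (adjusted p = 0.999 and 0.749). With the mean of both the differences from control were 0.43 and 0.28, both called.

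Adamts6, a secreted protease of the same subfamily as Adamts10, rose in the beta-catenin line. Its control arrays stood at 6.15, 5.90 and 6.23 and its beta-catenin arrays at 6.55, 7.16 and 6.94, all above control. Its ICAT arrays stood at 5.95, 6.33 and 6.65, overlapping both other groups. Adamts6 was 1.73-fold higher in the beta-catenin line than in control (log2 difference 0.79, SE 0.182, limma adjusted p = 0.00524), and the ICAT difference was 0.21 (interval -0.19 to 0.62, adjusted p = 0.418). It was 1.49-fold higher in the beta-catenin than in the ICAT line (adjusted p = 0.0251), a call lost without ICAT replicate 1 or 2 (adjusted p = 0.0900 and 0.0649) and without beta-catenin replicate 2 or 3 (0.104 and 0.0723). With the mean of its 2 probe sets the beta-catenin differences were 0.48 against control and 0.32 against ICAT, both called.

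Adamts16 and Adamts7 lay near the threshold and were looked at after their values were seen. Adamts16 was 1.22-fold lower in the beta-catenin line (8.33, 8.16 and 8.15 in control against 7.96, 7.98 and 7.84, adjusted p = 0.0463). That call was lost on leaving out any of the control or the beta-catenin replicates, and the adjusted p over the 8 settings that ended it ran from 0.0521 to 0.324. Adamts7, the other COMP-cutting enzyme, was 1.2-fold lower in the beta-catenin than in the ICAT line (adjusted p = 0.0169). Its call was lost without beta-catenin replicate 3 or ICAT replicate 1 (adjusted p between 0.0540 and 0.0755, array weights included).

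**Figure D3:**
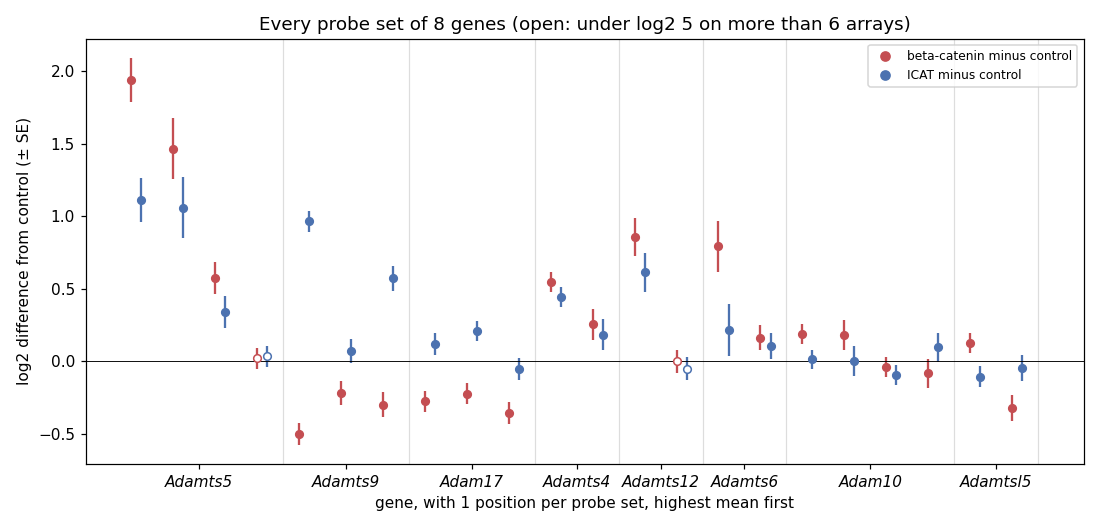
Log2 differences from control (± SE, from a limma fit over all probe sets) of every probe set of 8 member genes in the beta-catenin and ICAT lines. Open points mark probe sets under log2 5 on more than 6 of the 9 arrays; the 4 probe sets of Adamts5 spread from 0.02 to 1.94 in the beta-catenin line.

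Among the ADAMTS-like genes, Adamtsl3 followed the same pattern as Adamts9 with smaller differences. Adamtsl3 encodes a matrix glycoprotein without a protease domain. It stood at 8.25, 8.16 and 8.16 in control, at 7.73, 7.94 and 7.90 in the beta-catenin line and at 8.54, 8.41 and 8.47 in the ICAT line. The 3 groups did not overlap. Adamtsl3 was 1.26-fold lower in the beta-catenin line (log2 difference -0.34, limma adjusted p = 0.00351) and 1.22-fold higher in the ICAT line (0.28, adjusted p = 0.00895), and the beta-catenin line lay 1.54-fold below the ICAT line (-0.62, adjusted p = 4.55e-05).

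The other called ADAMTS-like genes are named after their values were seen. Adamtsl4, which encodes a fibrillin-binding protein, stood at 7.42, 7.98 and 7.83 in control and at 8.41, 8.30 and 8.15 in the ICAT line, 1.46-fold higher (log2 difference 0.55, limma adjusted p = 0.00453). In the beta-catenin line it lay at 8.06, 8.09 and 7.99, a difference of 0.31 that did not pass (interval 0.03 to 0.58, adjusted p = 0.0785). Adamtsl5 was 1.18-fold higher in the beta-catenin than in the ICAT line (adjusted p = 0.0135). Its other probe set lay the opposite way (-0.27, adjusted p = 0.0414 over all probe sets), the mean of both gave -0.02 (adjusted p = 0.862), and without beta-catenin replicate 3 the call was lost (adjusted p = 0.0609).

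Of the 9 ADAM genes with an active protease that are expressed outside the testis, 2 rose and 2 fell in the beta-catenin line (19.6% and 15.4% of all genes), and 2 rose and 1 fell in the ICAT line (18.7% and 18.5%). Directly compared, 2 were higher and 3 lower in the beta-catenin than in the ICAT line (22.5% and 17.9% of all genes). Adam9, a widely expressed sheddase, stood at 10.66, 10.63 and 10.65 in control and at 11.13, 11.25 and 11.20 in the ICAT line. Its beta-catenin arrays, at 10.56, 10.60 and 10.55, lay just below control. Adam9 was 1.46-fold higher in the ICAT line (log2 difference 0.55, SE 0.0578, interval 0.42 to 0.67, limma adjusted p = 3.04e-05). The beta-catenin difference of -0.08 did not pass (interval -0.20 to 0.05, adjusted p = 0.349), and the beta-catenin line stood 1.54-fold below the ICAT line (adjusted p = 8.69e-06).

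Adam17, the TNF-alpha converting enzyme, which also sheds ligands of the EGF receptor, was lower in the beta-catenin line. Its control arrays stood at 9.11, 9.11 and 9.07, its beta-catenin arrays at 8.84, 8.88 and 8.75, all below control, and its ICAT arrays at 9.32, 9.13 and 9.19, all above control. Adam17 was 1.21-fold lower in the beta-catenin line (log2 difference -0.27, SE 0.0676, interval -0.42 to -0.13, limma adjusted p = 0.00791). The ICAT difference of 0.12 did not pass (interval -0.03 to 0.27, adjusted p = 0.210), and the beta-catenin line lay 1.31-fold below the ICAT line (adjusted p = 0.000698). Its other 2 probe sets also lay below control in the beta-catenin line, with differences of -0.22 and -0.36 (adjusted p = 0.0391 and 0.00399 over all probe sets). In the ICAT line the first of them was called higher (0.21, adjusted p = 0.0484) and the other was not called (-0.05, adjusted p = 0.708).

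Adam10, the alpha-secretase of the amyloid precursor protein and the sheddase that starts Notch activation, stood at 11.12, 11.18 and 11.18 in control. It stood at 11.36, 11.38 and 11.31 in the beta-catenin line, all above control, and at 11.15, 11.25 and 11.12 in the ICAT line, which overlapped control. The beta-catenin difference of 0.19 was 1.14-fold (interval 0.05 to 0.32, limma adjusted p = 0.033). That call was lost without control replicate 1, 2 or 3 (adjusted p = 0.120, 0.0738 and 0.0793), without beta-catenin replicate 1 or 2 (0.0843 and 0.116), with arrays centred (0.159) and with the mean of its 4 probe sets (log2 difference 0.06, adjusted p = 0.495). The ICAT difference was 0.01 (interval -0.12 to 0.15, adjusted p = 0.891). The 1.13-fold difference from the ICAT line (adjusted p = 0.0411) was lost in 12 of 16 alternative settings.

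Adam8, Adam12 and Adam28 are named after their values were seen. Adam8, a sheddase best known from leukocytes, stood at 6.64, 6.71 and 6.68 in control, at 6.49, 6.39 and 6.48 in the beta-catenin line and at 6.91, 7.05 and 7.13 in the ICAT line, with no overlap between groups. It was 1.28-fold higher in the ICAT line (limma adjusted p = 0.00188) and 1.17-fold lower in the beta-catenin line (adjusted p = 0.0281). The second call was lost without control replicate 1, 2 or 3 or beta-catenin replicate 2 or 3 (adjusted p = 0.0545, 0.0980, 0.0804, 0.116 and 0.0553). Of the immune markers, Ptprc and Itgam lay under log2 5, and 5 were tested. Cd68, a macrophage marker, was lower in the beta-catenin line than in control (log2 difference -0.55, adjusted p = 0.000888) and than in the ICAT line (-0.77, adjusted p = 8.06e-05), the direction of Adam8. The other 4 tested immune markers were called in no comparison. The mean of the 7 lay between 5.85 and 5.86 on the control arrays, 5.63 and 5.70 on the beta-catenin arrays and 5.73 and 5.89 on the ICAT arrays. The part of these markers in the Adam8 differences was not tested.

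Adam12 (meltrin alpha) stood at 6.53, 6.61 and 6.56 in control and at 6.88, 7.01 and 6.96 in the beta-catenin line, 1.31-fold higher (limma adjusted p = 0.0012). Its ICAT difference was 0.16 (adjusted p = 0.0941). It was 1.17-fold higher in the beta-catenin than in the ICAT line (adjusted p = 0.0263), a call lost without beta-catenin replicate 2 or 3 or ICAT replicate 1, and with only both groups in the fit (adjusted p from 0.0667 to 0.105). Adam28 was 1.15-fold lower in the ICAT line (5.51, 5.71 and 5.60 in control against 5.44, 5.44 and 5.32, adjusted p = 0.0429). Of 15 alternative settings 11 ended that call, with adjusted p from 0.0504 to 0.18, among them leaving out ICAT replicate 1, 2 or 3, control replicate 2 or 3, or beta-catenin replicate 2 or 3.

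The remaining 16 tested members were called in no comparison, and their largest difference was 0.24. The share of all tested genes called in no comparison is not given here, so this count has no background beside it. They included the sheddases Adam15, Adam19 and Adam33, and Adam11, Adam22 and Adam23, which lack protease activity and act as receptors in the nervous system. All 5 tested genes of testis or epididymis (Adam1a, Adam1b, Adam4, Adam7 and Adam21) were among them.

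Most of the metalloproteinase inhibitor genes read here were higher in both lines. Whether they restrain the ADAM and ADAMTS enzymes of these cells was not tested. Of Timp1, Timp2, Timp3, Timp4 and Reck, 4 rose in the beta-catenin line and 3 in the ICAT line, and none fell in either. Over all genes 19.6% rose and 15.4% fell in the beta-catenin line, and 18.7% and 18.5% in the ICAT line. The median difference was 0.84 and 0.98, beside -0.03 and -0.01 over all genes. Timp3, the TIMP that also inhibits ADAM17 and aggrecanases, stood at 9.24, 9.23 and 9.31 in control, at 10.33, 10.40 and 10.32 in the beta-catenin line and at 11.19, 10.47 and 10.61 in the ICAT line. All arrays of both lines lay above control, by 2.13-fold (limma adjusted p = 0.000112) and 2.82-fold (adjusted p = 1.62e-05). Reck, a membrane-anchored metalloproteinase inhibitor, stood at 6.36, 6.24 and 6.36 in control, at 7.26, 7.45 and 7.13 in the beta-catenin line and at 8.43, 8.06 and 7.89 in the ICAT line. The groups did not overlap, and Reck was 1.94-fold higher in the beta-catenin line (adjusted p = 0.000112) and 3.49-fold higher in the ICAT line (adjusted p = 1.85e-06).

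Genes of proteins that carry or activate the sheddases were also read. Of 12 tested regulators (iRhoms, the iRhom partner Frmd8, TspanC8 tetraspanins and proprotein convertases), 1 rose and 2 fell in each line against control, beside 34.9% and 37.2% of all genes called. The medians were -0.04 and -0.07, beside -0.03 and -0.01 over all genes. The 2 that fell in both lines were Tspan14, a tetraspanin partner of ADAM10 (-0.63 and -0.34, limma adjusted p = 1.97e-05 and 0.0018), and Furin, which removes ADAM propeptides (-0.29 and -0.32, adjusted p = 0.00525 and 0.00308). Frmd8 rose in the beta-catenin line (0.31, adjusted p = 0.00483) and Tspan17 in the ICAT line (0.39, adjusted p = 0.00589). These are named after their values were seen, as none reached a log2 difference of 1.

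Most ligands of the EGF receptor family that are shed by ADAMs were lower in the beta-catenin line. Of 7 tested, 4 fell and 1 rose there (15.4% and 19.6% of all genes), with a median of -0.34 beside -0.03 over all genes. In the ICAT line 1 fell and none rose (18.5% and 18.7% of all genes), with a median of -0.03 beside -0.01. Hbegf, an ADAM-shed ligand, stood at 10.23, 10.26 and 10.30 in control, at 7.99, 8.12 and 8.32 in the beta-catenin line and at 9.90, 10.45 and 10.36 in the ICAT line. It was 4.35-fold lower in the beta-catenin line, where no array reached control (limma adjusted p = 2.74e-07). The ICAT arrays overlapped control (difference -0.03, interval -0.31 to 0.26, adjusted p = 0.900). Ereg (epiregulin) fell in both lines, with log2 differences of -2.56 and -0.69 (adjusted p = 3.33e-08 and 0.000864).

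Most other listed substrates of ADAM10 and ADAM17 were lower in the beta-catenin than in the ICAT line. This list, like those of inhibitors, regulators, ligands and matrix partners, was chosen with earlier results of these data known. The counts of these lists are therefore descriptive. Of 26 tested, 5 rose and 9 fell in the beta-catenin line against control (19.6% and 15.4% of all genes), and 14 rose and 4 fell in the ICAT line (18.7% and 18.5% of all genes). The medians were -0.03 and 0.29, beside -0.03 and -0.01 over all genes. Directly compared, 1 was higher and 18 were lower in the beta-catenin than in the ICAT line (22.5% and 17.9% of all genes). The median there was -0.40, beside -0.01 over all genes. Alcam, a cell adhesion molecule, fell in both lines, with log2 differences of -1.31 (limma adjusted p = 3.05e-07) and -0.48 (adjusted p = 0.000812). App, the amyloid precursor protein gene, rose in both, by 0.49 (adjusted p = 0.000184) and 1.07 (adjusted p = 1.13e-06). Lrp1, an endocytic receptor, fell in the beta-catenin line (-1.19, adjusted p = 1.71e-06) and rose in the ICAT line (0.55, adjusted p = 0.00069). Il6ra, the interleukin 6 receptor gene, also fell in the first (-0.41, adjusted p = 0.0242) and rose in the second (1.07, adjusted p = 6.11e-05).

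Of 19 tested ADAMTS substrates and matrix partners, 11 rose and none fell in the ICAT line (18.7% and 18.5% of all genes; median 0.45, beside -0.01). In the beta-catenin line 4 rose and 5 fell (19.6% and 15.4% of all genes; median -0.05, beside -0.03). Thbs1, the matrix protein thrombospondin 1, was 17.6-fold higher in the beta-catenin line (limma adjusted p = 3.33e-08) and 2.63-fold higher in the ICAT line (adjusted p = 0.000183). Lox, the collagen cross-linking enzyme, was 2.81-fold and 3.76-fold higher (adjusted p = 1.85e-06 and 8.47e-07). Col1a1, a collagen I chain, was 2.2-fold and 3.63-fold higher (adjusted p = 0.00151 and 5.52e-05). Col1a2, the other chain, was 2.63-fold lower in the beta-catenin line (adjusted p = 3.48e-07) and 2.73-fold higher in the ICAT line (adjusted p = 8.28e-07). Thbs2, the gene of thrombospondin 2, was 1.44-fold lower in the first (adjusted p = 0.00217) and 3.28-fold higher in the second (adjusted p = 8.19e-07). Vcan and Acan, the genes of versican and aggrecan, were called in neither line against control (Vcan adjusted p = 0.825 and 0.123, Acan 0.737 and 0.0619). Directly compared, Acan was lower in the beta-catenin than in the ICAT line (-0.32, adjusted p = 0.0266). Vcan was not called there (0.22, adjusted p = 0.0698). Fibroblast markers moved with this list in the ICAT line. Of 8 tested, 7 rose and none fell there (18.7% and 18.5% of all genes). In the beta-catenin line 2 rose and 2 fell (19.6% and 15.4%). The mean over all 10 lay between 8.39 and 8.63 on the ICAT arrays. It lay between 7.50 and 7.56 on the control arrays and 7.55 and 7.75 on the beta-catenin arrays. Epithelial markers ran from 5.94 to 6.10 on the ICAT arrays and from 5.76 to 5.81 in control. In the ICAT line 3 of 7 were called higher (18.7% of all genes). Several collagen genes and Dcn are in both the matrix and the fibroblast list, and the part of these markers in the ICAT differences of the ADAM and ADAMTS genes was not tested.

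**Figure D4:**
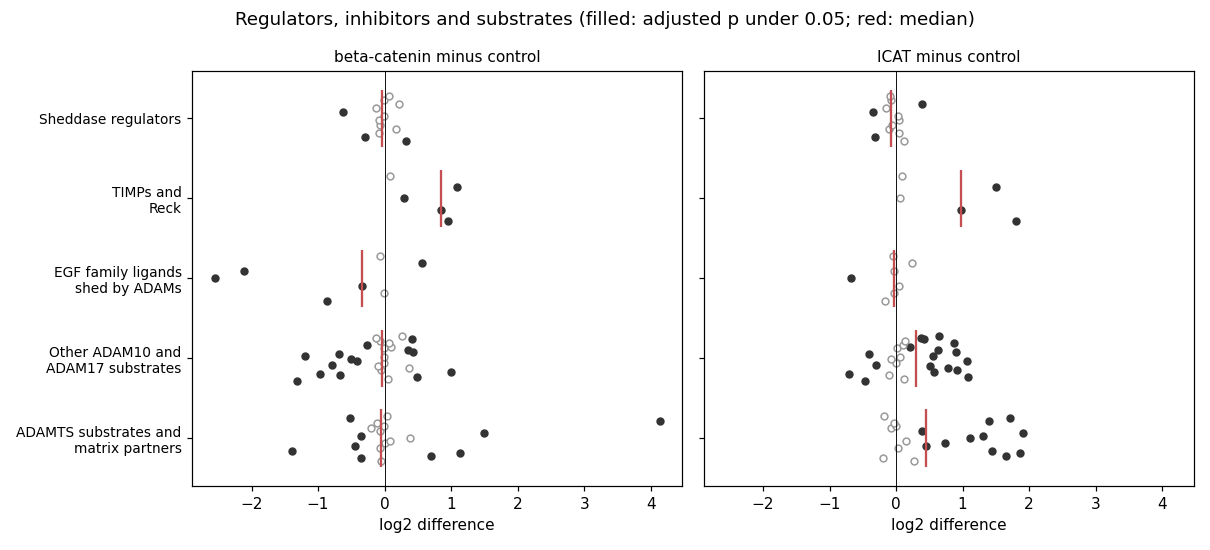
Log2 differences of the tested genes of 5 lists of inhibitors, regulators, substrates and partners in each transfected line against control, with filled points for adjusted p under 0.05 (limma) and red marks for list medians. The inhibitors lie to the right in both lines against control (medians 0.84 and 0.98), and the matrix partners lie to the right in the ICAT line (median 0.45).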

How the data were processed

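RNA from 9 samples was measured on Affymetrix arrays. The deposited values are the authors' log2 expression per probe set. The submitters' processing notes name RMA and affy, whose versions the sources used here do not give. RMA shrinks the differences of dim probe sets and makes array distributions equal, so a shift of all genes would not be seen. Of 45037 probe sets 34945 have 1 gene symbol, 932 several and 9160 none.

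All 9 arrays and 15235 genes entered 1 limma model with group means (limma 3.58.1, R 4.3.3). Residual degrees of freedom were 6, and prior ones 5.03. The 3 comparisons were tested two-sided with Benjamini-Hochberg adjustment within each. Calls use the adjusted p, and intervals are for 1 gene, unadjusted. An exact permutation test of 3 against 3 arrays cannot go under 0.1. The limit of log2 5 is chosen, not a measured background. Members called with at least 1.5-fold in any comparison, and Adam9, Adam10, Adam17, Adamts1 and Adamts5, got full values; list genes were named where called with a log2 difference of at least 1, at most 3 a list in each comparison, and others, Vcan and Acan among them, after their values were seen. The members and lists were chosen with earlier results of these data known. Promoter windows were searched by exact letters. The fit was tested on simulated data for both comparisons with control. It recovered 80% (beta-catenin) and 86% (ICAT) of 1.5-fold changes, and 100% and 96% of 2-fold changes. Of its calls 4.76% and 7.14% were false. The simulation gave all groups the same spread per gene, so it cannot show how the fit handles the wider spread of the ICAT arrays. Alternatives were no filter, a filter of log2 7, only both groups in the fit, the mean of probe sets, centred arrays, array weights, a replicate block and leaving out each array.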

Additional observations from a re-analysis of the deposited data

How the results depend on the processing

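Each result was recomputed under 7 alternatives and with each of the 9 arrays left out. Calls kept their direction and side of the threshold in every setting run for 9 of 12 called members in beta-catenin against control (not Adam8, Adam10 and Adamts16), 8 of 9 in ICAT against control (not Adam28) and 7 of 12 in beta-catenin against ICAT (not Adam10, Adam12, Adamts6, Adamts7 and Adamtsl5). Over all members, comparisons and settings, 1447 values stayed on their side, 55 calls were lost, 30 were gained and 1 reversed: Adamtsl5, beta-catenin against ICAT, at -0.019 with the mean of probe sets. With only both groups in the fit, 6658, 5079 and 5292 genes were called in the 3 comparisons, beside 5321, 5670 and 6155. Array weights ran from 0.217 (ICAT replicate 3) to 3.81 (beta-catenin replicate 2). With array weights 8324 genes were called in beta-catenin against control, beside 5321. A filter of log2 7 left 3 members higher there, beside 7, as it tests fewer members. In ICAT against control 0 members were lower with no filter, a filter of log2 7, only both groups in the fit, or the mean of probe sets, and 3 with arrays centred, beside 1. Leaving out arrays gave 4285 to 6218 genes called, 6 to 7 members higher and 3 to 5 lower in beta-catenin against control. It gave 4587 to 6153 genes, 8 to 9 higher and 0 to 1 lower in ICAT against control, and 5182 to 6981 genes, 3 to 7 higher and 5 to 8 lower in beta-catenin against ICAT. The causes of these changes were not tested, and shares of kept calls over all genes are not given here. Replicate numbers are shared between groups. Deviations of same-numbered arrays correlated at 0.12, 0.17 and 0.41 for replicate 3, and between -0.13 and 0.16 for replicates 1 and 2. Of the 9 arrays, 6 correlated best with their own number in another group, among them replicate 3 of every group. The labels do not say whether the numbers pair the samples, and pairing was not tested further. The main model does not use the numbers. With a replicate block 5524, 5853 and 6389 genes were called, with 7 members higher and 5 lower, 8 and 1, and 7 and 7; it ended no call of a member and added Adam33 and Adamts16 in beta-catenin against ICAT. RMA values carry no detection calls, so members near log2 5 are read with least certainty.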

Other observations

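Several members lie side by side in the RefSeq gene order of GRCm38.p6. Adam18, Adam3, Adam5, Adam32 and Adam9 follow each other on chromosome 8, and of these Adam9 alone reached log2 5. Adamts15 and Adamts8 are neighbours on chromosome 9 and Adam1b and Adam1a on chromosome 5, and none of these 4 was called in any comparison. Adamts1 and Adamts5, neighbours on chromosome 16, were both called higher in beta-catenin cells, while in ICAT cells Adamts5 was called higher and Adamts1 was not.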
